A study of Mus musculus with 6 samples.

Results

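The genes described here form the molecular circadian clock: the activators Arntl, Clock and Npas2, the repressors Per1, Per2, Per3, Nr1d1 and Nr1d2, and the clock-controlled activators Dbp and Tef. They were taken from mouse tumor arrays by matching the accession of each gene probe to a RefSeq symbol. All 10 genes had a probe, 11 probes in all with 2 for Dbp, among 55681 gene probes on the array. Of the 10 genes, 9 passed the detection filter and were tested among 22503 genes, and Npas2 did not.

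The mammalian clock is a transcriptional feedback loop in which ARNTL (also called BMAL1) pairs with CLOCK or its paralog NPAS2 and activates genes through E-boxes, among them the Per and Cry genes, whose proteins then inhibit the activators. A linked loop is formed by the nuclear receptors NR1D1 and NR1D2 (REV-ERBα and REV-ERBβ), which repress Arntl through ROR elements, and a further arm by DBP and TEF, which activate genes through D-boxes. The loop runs in most tissues, the mammary epithelium included, so that the level of these transcripts depends on the hour at which a tissue is taken.

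Two-color arrays compared RNA from sorted tumor cells that carried or lacked RANK, the receptor activator of NF-κB encoded by Tnfrsf11a. The cells came from MMTV-PyMT mammary tumors, in which a viral oncogene is driven by a mammary tumor virus promoter, at the late carcinoma stage. Tumor cells of either genotype, RANK+/+ or RANK-/-, were placed in the mammary gland of C57BL/6 hosts of matching background, grown tumors were digested, and live CD45- cells, those without the leukocyte surface protein CD45, were sorted. Each array carried 1 RNA of each genotype, giving 3 pairs of RNAs with 2 technical arrays (A and B) per pair, 6 arrays in all. The transgene had been backcrossed from FVB/N into C57BL/6. Both groups therefore shared the oncogene, the strain, the host and the sort, and differed in RANK, which was absent from the whole body of the donor and not only from the tumor. The RNA labelled RANK-/- was in Cy5 in pair 1 and in Cy3 in pairs 2 and 3, per the labels. The methods of the study speak of dye swaps of each sample, which the labels do not show, so statements below on dye rest on the labels. Hosts of such transplants were females, 6 to 10 weeks of age at implantation. The time since transplantation and the hour of collection are not given in the sources used here, and neither is whether the 2 tumors of a pair were collected together. Whether 2 RNAs came from different donor tumors is likewise not given, so the p-values below measure the spread between these 3 pairs.

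Values are log2 ratios of RANK-/- over RANK+/+ after background correction and normalisation within each array, with the mean of arrays A and B as the value of a pair, and log2 signals of each RNA. In all 12 channel readings 51.95% to 58.83% of gene probes lay well above background, and the median difference between technical arrays was 0.0667 log2 units over all genes. Correlations of the ratios over all genes between pairs were low, at -0.28 for pairs 1 and 2, 0.18 for pairs 1 and 3 and -0.08 for pairs 2 and 3. The probe for Tnfrsf11a went against the labels: its log2 ratio was 2.03, 1.15 and 1.76 in pairs 1, 2 and 3, brighter in the channel labelled RANK-/- each time, and whether this probe lies inside the deleted part is not given in the sources used here. Directions below therefore rest on the labels alone. In a sorted cell population, fewer cells of a type and less RNA per cell cannot be told apart.

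Promoters of 5 genes are printed here because clock factors are known to bind short motifs in such sequence. Of these, Per1, Tef and Dbp had ratios above 0 in pairs 1 and 3 and below 0 in pair 2. Per2 and Nr1d2 had the same signs and are not printed. The others, Nr1d1 and Ciart, were lower in the RNA labelled RANK-/- in every pair. Each is the stretch of 250 bases before the transcription start in RefSeq (GRCm38.p6), read 5′ to 3′ in the direction of the gene, with E-box letters (CACGTG) in capitals.
Per1, chr11:69098699-69098948, plus strand: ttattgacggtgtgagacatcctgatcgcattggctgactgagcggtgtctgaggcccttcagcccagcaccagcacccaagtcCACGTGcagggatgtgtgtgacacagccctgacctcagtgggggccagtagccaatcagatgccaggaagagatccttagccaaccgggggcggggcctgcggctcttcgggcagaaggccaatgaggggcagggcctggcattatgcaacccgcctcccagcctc
Tef, chr15:81802423-81802672, plus strand: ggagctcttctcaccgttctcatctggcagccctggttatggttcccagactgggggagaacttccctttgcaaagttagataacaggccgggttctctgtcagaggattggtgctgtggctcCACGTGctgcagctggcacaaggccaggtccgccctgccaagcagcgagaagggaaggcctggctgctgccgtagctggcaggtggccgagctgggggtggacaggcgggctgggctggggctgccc
Dbp, chr7:45704997-45705246, plus strand: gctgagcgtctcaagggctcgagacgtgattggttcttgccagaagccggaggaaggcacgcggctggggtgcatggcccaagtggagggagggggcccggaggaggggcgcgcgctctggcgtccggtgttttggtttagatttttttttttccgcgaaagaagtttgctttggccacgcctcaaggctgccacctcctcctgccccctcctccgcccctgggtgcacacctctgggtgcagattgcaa
Nr1d1, chr11:98775378-98775627, minus strand: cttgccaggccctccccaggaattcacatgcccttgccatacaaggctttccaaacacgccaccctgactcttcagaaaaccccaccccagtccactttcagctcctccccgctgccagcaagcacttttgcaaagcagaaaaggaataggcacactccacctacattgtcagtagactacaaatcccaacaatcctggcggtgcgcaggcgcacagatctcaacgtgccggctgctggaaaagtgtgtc
Ciart, chr3:95882229-95882478, minus strand: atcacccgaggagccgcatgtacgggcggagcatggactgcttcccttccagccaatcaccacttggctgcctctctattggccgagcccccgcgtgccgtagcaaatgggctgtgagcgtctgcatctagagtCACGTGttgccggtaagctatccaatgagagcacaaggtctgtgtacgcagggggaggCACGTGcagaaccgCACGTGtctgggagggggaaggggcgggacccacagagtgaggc
The search covered the E-box, the D-box (TTATGTAA or TTACATAA) and the ROR element (TAGGTCA or TGGGTCA) on both strands, with no overlap between matches of different motifs in these genes. An E-box stood 166 bases before the Per1 start printed here, while the other Per1 start had none. For Tef it stood 127 bases before the start printed here and 138 bases before the other start. Of the 9 clock genes with a promoter entry (all but Per2), 2 held an E-box and 1, Per3, held the D-box, at 205 and 158 bases before its start. The ROR element was found in 0 of the 9. Counted by start, 3 of their 14 starts held the E-box, 1 the D-box and 0 the ROR element. Among all 32851 starts of the same length, 6.02% held the E-box, 0.819% the D-box and 5.38% the ROR element. Ciart held 3 E-boxes, at 116, 58 and 44 bases before its start, whereas the windows of Dbp and Nr1d1 held none of the letters searched. These matches describe the sequence printed, and other clock elements of these genes may lie outside it.

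The activators of the loop did not separate by genotype. Arntl, the central activator, had log2 signals of 8.08, 8.16 and 8.48 in the RNAs labelled RANK-/- of pairs 1, 2 and 3 and of 8.95, 8.06 and 8.41 in their RANK+/+ partners. The RANK+/+ RNA of pair 1 stood highest, the other 5 RNAs lay between 8.06 and 8.48, and the groups overlapped. The ratio was accordingly -0.87 in pair 1 and 0.10 and 0.07 in pairs 2 and 3, with a mean of -0.24 ± 0.55 (SD, n = 3 pairs). Clock, the partner of ARNTL, had log2 signals of 8.69, 9.35 and 8.96 in the RNAs labelled RANK-/- and of 8.56, 8.81 and 9.08 in the RANK+/+ RNAs. The 2 lowest RNAs were those of pair 1, 1 of each genotype. Its ratio was 0.13, 0.54 and -0.12, with a mean of 0.18 ± 0.33 (SD, n = 3). Npas2, the alternative partner, was well above background in 1 of 6 readings of RANK-/- RNA and 0 of 6 of RANK+/+ RNA, so that no ratio is given for it.

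The Per genes, whose products inhibit the activators, gave both the widest and one of the narrowest spreads of the set. Per1 had log2 signals of 14.51, 14.18 and 14.11 in the RNAs labelled RANK-/- and of 13.19, 14.76 and 13.54 in the RANK+/+ RNAs. The 3 RNAs labelled RANK-/- sat close together, and the RANK+/+ RNAs held both the lowest value (pair 1) and the highest (pair 2). Before normalisation the median spot intensity on the A arrays was 26352.5 against 8801.5 in pair 1, 15753 against 35771 in pair 2 and 12217 against 17280 in pair 3, RANK-/- against RANK+/+. In pair 3 the raw reading was thus dimmer for RANK-/-, which was in Cy3, and brighter after normalisation. Over the whole array the Cy5 channel read higher than Cy3, with medians of 87 to 105.5 against 48 to 54. Its background was higher as well, with medians of 63 to 71 against 30 to 36. With each array only centred on its median, the Per1 ratio in pair 3 stayed below 0, at -0.27. The normalised ratio of Per1 was 1.31, -0.58 and 0.56, with a mean of 0.43 ± 0.96 (SD, n = 3). Its range over the pairs, 1.90, exceeded that of 93.5% of all tested genes.

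Per2 followed Per1. Its log2 signals were 9.10, 8.57 and 8.70 in the RNAs labelled RANK-/- and 8.25, 8.93 and 7.81 in the RANK+/+ RNAs, the latter again holding the lowest value and, for pair 2, the second-highest. The ratio was 0.85, -0.36 and 0.89, with a mean of 0.46 ± 0.71 (SD, n = 3). Per3 varied little in this run but was near the detection floor. Its 6 log2 signals lay between 6.29 and 6.62, and its ratio was -0.15, 0.14 and 0.25. The mean was 0.08 ± 0.21 (SD, n = 3), with a range over pairs wider than that of 30.6% of genes. On array 1A its spot read 84.5 over a background of 70 for RANK-/- and 54.5 over 36 for RANK+/+. With an offset of 0 in place of 50 in the background correction, its ratios were -0.40, 0.34 and 0.55, so its spread depended on that offset.

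Nr1d1, the REV-ERBα receptor, was the one clock gene whose groups did not overlap. Its log2 signals were 7.71, 8.33 and 8.32 in the RNAs labelled RANK-/- and 8.80, 8.49 and 8.53 in the RANK+/+ RNAs. Every RNA labelled RANK-/- was below every RANK+/+ RNA, with 8.33 against 8.49 for the nearest of them, and pair 1 held both the lowest and the highest value. The ratio was -1.09, -0.16 and -0.21, with a mean of -0.49 ± 0.53 (SD, n = 3) and a 95% interval from -1.15 to 0.18. Without pair 1 the mean was -0.18. On the separate arrays of pair 2 the ratio was -0.07 and -0.25, and on those of pair 3 it was -0.27 and -0.15, so all 6 arrays were below 0. Nr1d2, its paralog with the same DNA target, did not follow it: the ratio was 0.10, -0.27 and 0.01, the mean was -0.05 ± 0.19 (SD, n = 3), and all 6 log2 signals lay between 9.41 and 9.97.

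Dbp and Tef, the D-box activators whose own transcription is driven by the clock, resembled Per1. Dbp had log2 signals of 11.51, 11.38 and 11.93 in the RNAs labelled RANK-/- and of 10.88, 12.06 and 11.61 in the RANK+/+ RNAs. Lowest of the 6 was again the RANK+/+ RNA of pair 1, and highest the RANK+/+ RNA of pair 2. The ratio was 0.63, -0.67 and 0.31 with a mean of 0.09 ± 0.68 (SD, n = 3), and the second Dbp probe gave 0.64, -0.59 and 0.59. Tef had log2 signals of 13.60, 13.55 and 14.09 in the RNAs labelled RANK-/- and of 12.90, 14.03 and 13.78 in the RANK+/+ RNAs. The lowest was the same RNA as for Dbp, and the highest was the RANK-/- RNA of pair 3. Its ratio was 0.69, -0.48 and 0.30, with a mean of 0.17 ± 0.60 (SD, n = 3).

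**Figure D1:**
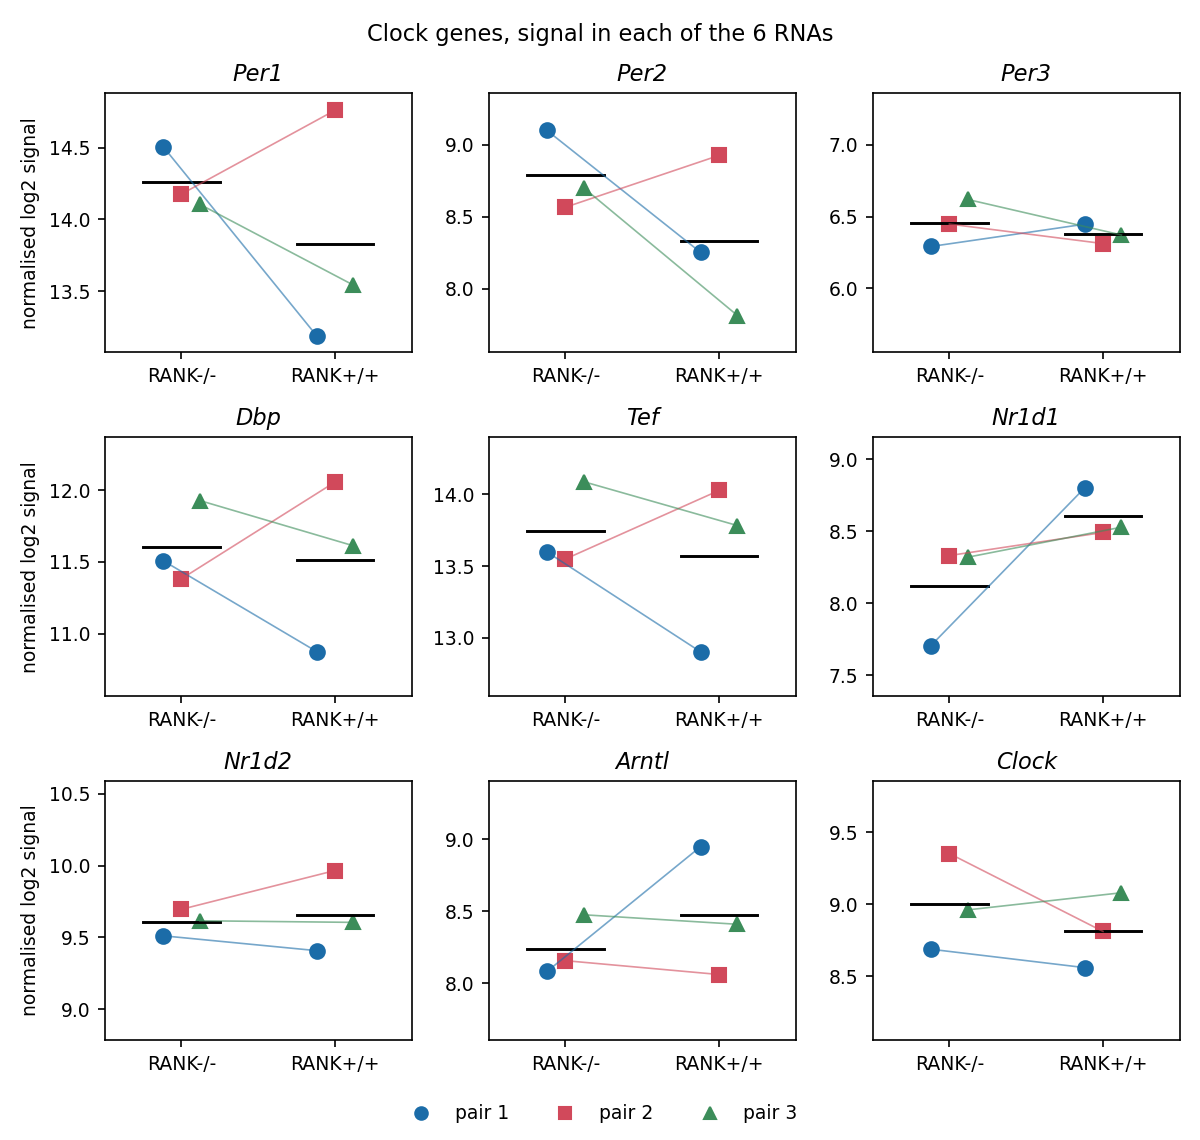
Normalised log2 signal (vertical axis, spanning 1.8 log2 units in every panel) of the 9 tested clock genes in the 3 RNAs labelled RANK-/- and the 3 labelled RANK+/+; symbols and colors give the pair, thin lines join the RNAs of a pair and black bars are group means. Only in the Nr1d1 panel do the groups not overlap, and the RANK+/+ RNAs of pairs 1 and 2 lie at opposite ends of the RANK+/+ group in every panel but those of Per2 and Clock.

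Across the set, no clock gene differed between genotypes by the test over pairs. limma on the 3 pair ratios called 0 of 9 clock genes, with an adjusted p of 0.9995 for each, against 0% of all 22503 genes. At an unadjusted p under 0.05 it held 0 of the 9, against 647 genes or 2.88% of all. Without pair 2 it held 2 of the 9, Per1 and Per2, against 1876 of all 22503 genes. With a dye term, with median centring or with the 6 arrays as separate replicates it held 1, Nr1d1. Of all 22503 genes it held 874, 521 and 3818 in these runs, in that order. The rank product called 0 of the 9 against 18 genes or 0.08%. By sign alone, 0 of 9 clock genes were above 0 in all 3 pairs (9.95% of all genes were) and 1 of 9, Nr1d1, was below 0 in all 3 (9.65% of all genes). With no overlap between the 3 signals of each genotype, 0 of 9 were higher for RANK-/- (3.69% of all genes) and Nr1d1 alone was lower (3.77% of all genes). A count of 1 in 9 below 0 in all pairs is near the share over all genes. With 3 pairs the 95% intervals of the mean ratios were wide, from -0.64 to 1.51 for Per1 and from -0.38 to 1.29 for Per2 at one end to -0.35 to 0.50 for Per3 and -0.47 to 0.37 for Nr1d2 at the other, so that changes of these sizes lay within the error for each gene.

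**Figure D2:**
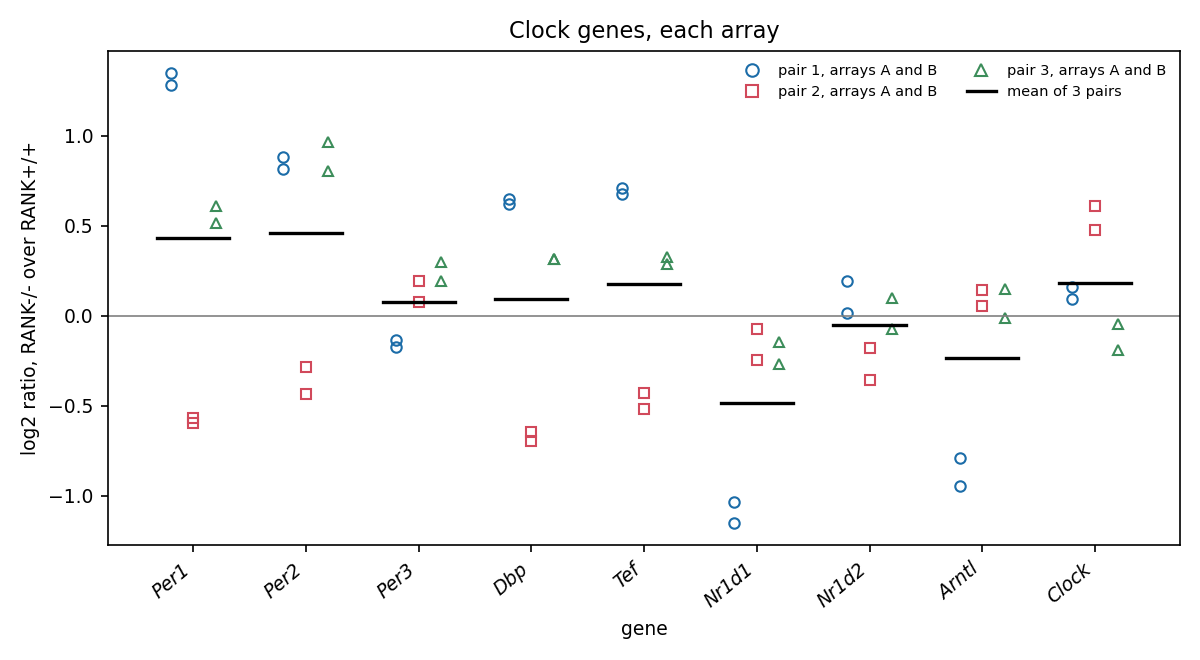
Log2 ratio of RANK-/- over RANK+/+ (vertical axis) of the 9 tested clock genes on each of the 6 arrays; open symbols are single arrays, 2 per pair, and black bars the mean of the 3 pairs. Arrays of a pair lie within 0.18 of each other for every gene, whereas Per1 runs from -0.58 in pair 2 to 1.31 in pair 1.

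The pairs themselves differed. An F test of the 3 pair means against the spread between arrays A and B called all 9 clock genes at an adjusted p under 0.05, with the largest adjusted p at 0.00924 for Nr1d2, but it also called 88.4% of all genes, since technical arrays of the same RNAs vary little. Arrays A and B differed by at most 0.05 (Dbp) to 0.18 (Nr1d2), while the ranges over pairs were 0.37 (Nr1d2) to 1.90 (Per1), beside a median range of 0.627 over all genes. Of the 9 tested clock genes, 5 were above 0 in pairs 1 and 3 and below 0 in pair 2: Per1, Per2, Dbp, Tef and, at values near 0, Nr1d2. Of all genes 18.8% had these signs, and the opposite signs, which 17% of all genes had, occurred in 0 of the 9. The signs in pair 3 depended on the normalisation within the array. With each array only centred on its median, the ratios of Per1, Dbp, Tef and Nr1d2 in pair 3 were -0.27, -0.33, -0.53 and -0.54, where the median of all genes stood at -0.39, and Per2 was the only gene of the 5 that kept a ratio above 0 there (0.44). Relative to that median, Per1 and Dbp stood 0.13 and 0.07 above it and Tef and Nr1d2 0.14 and 0.15 below it. The signs of pairs 1 and 2 were kept by these 5 genes.

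The width of the spread also differed between the labelled groups for some genes. For Per1 the 3 RNAs labelled RANK-/- spanned 0.40 log2 units and the RANK+/+ RNAs 1.57, and for Dbp, Tef and Per2 the RANK-/- RNAs spanned 0.53 to 0.54 and the RANK+/+ RNAs 1.11 to 1.18. In all, 6 of the 9 clock genes spanned more in RANK+/+ than in RANK-/- RNA, and 50.8% of all genes did. In both groups the RNA of pair 1 was in the other dye than those of pairs 2 and 3, so that dye and RNA cannot be told apart in these spans.

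The genes most like Per1 and Per2 over the 3 pairs were sought among 14650 genes by the root mean square difference of their ratios on the 6 arrays. For Per1 they were Cbr1, Btg2, Amz1, Manba and Nbea, with differences of 0.0753 to 0.111, and the nearest clock gene was Per2, at rank 256, with a difference of 0.363. For Per2 they included Gng5, Syne4, Fbxw7 and Ssx2ip, with differences of 0.0632 to 0.1. Seen from Per2, the clock genes of the set were no nearer, with Per1 at rank 603 and Tef at rank 614.

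Nfil3 had the widest spread among the rest of the core clock, and Ciart was lower in the RNA labelled RANK-/- in each pair. Of 10 other core clock genes, all tested, 0 were called and 0 were above 0 in all pairs (9.95% of all genes were). In all pairs 1 was below 0 (9.65% of all genes), near the share over all genes. The signs of Per1 were found in 5 (18.8% of all genes) and the opposite signs in 0 (17%). Nfil3, a D-box repressor that opposes DBP and TEF, had ratios of 2.02, -0.88 and 3.12 (mean 1.42 ± 2.07, SD, n = 3). Its log2 signals were 13.48, 11.53 and 13.83 in the RNAs labelled RANK-/- and 11.46, 12.41 and 10.71 in the RANK+/+ RNAs, so the RANK-/- RNAs of pairs 1 and 3 stood above the remaining 4. Hlf, the third member of the DBP and TEF family, had ratios of 0.77, -0.20 and 1.70.

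Cry2, which with PER proteins inhibits the activators, had 0.65, -0.82 and 1.12, whereas Cry1 stayed near 0 with -0.00, 0.03 and 0.12. Cry1 was near the detection floor, well above background in 5 of 6 readings of RANK-/- RNA and 6 of 6 of RANK+/+ RNA. From the processed intensities of the scanner its ratios were -0.22, 0.43 and 0.48. Among the ROR receptors, which activate the elements that NR1D1 represses, Rora had 0.36, -0.14 and 0.83, and Rorb 0.30, -0.24 and -0.15. Second probes of Rora and Rorb did not repeat these signs. The E-box repressor Bhlhe40 had 0.45, -0.88 and 0.95, and its paralog Bhlhe41 had 0.02, 0.55 and -0.97. A second, dimmer Bhlhe41 probe gave -0.85, 0.83 and -0.52. Arntl2, a paralog of Arntl, had -0.11, -0.40 and 0.88. The 5 genes with the signs of Per1 (Nfil3, Hlf, Cry2, Rora and Bhlhe40) kept them with median centring.

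Ciart, a repressor of the CLOCK and ARNTL activators and the gene with 3 E-boxes above, was the one other core gene below 0 in all pairs, with ratios of -0.52, -0.12 and -0.94 and a mean of -0.53 ± 0.41 (SD, n = 3; 95% interval -1.09 to 0.04). Its log2 signals were 6.49, 6.89 and 6.71 in the RNAs labelled RANK-/- and 7.01, 7.01 and 7.65 in the RANK+/+ RNAs, without overlap. Of all genes, 3.77% were lower for RANK-/- without overlap. Nr1d1 and Ciart had all 3 ratios below 0 under each of 9 alternative normalisations and filters. A change of filter alone could not alter these ratios, so only the changes of normalisation bear on their signs. Neither passed the test over pairs, and with pair 1 or pair 3 as the source of their largest difference they did not vary alike.

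**Figure D3:**
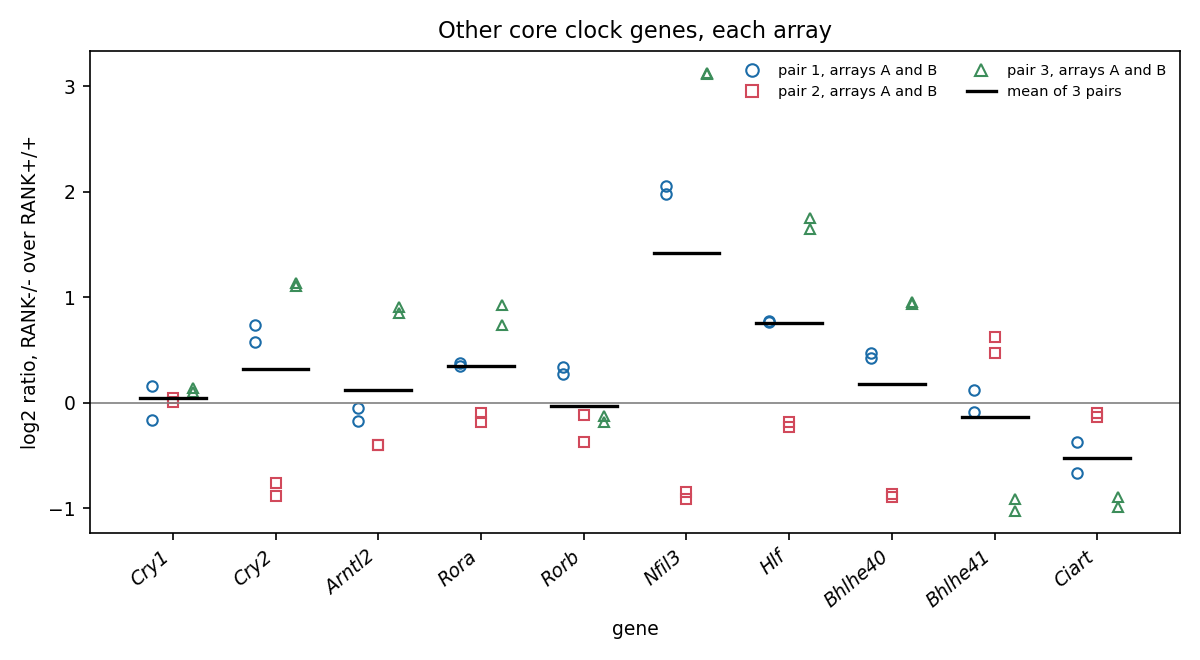
Log2 ratio of RANK-/- over RANK+/+ (vertical axis) of 10 other core clock genes on each of the 6 arrays; open symbols are single arrays, 2 per pair, and black bars the mean of the 3 pairs. Nfil3 has the widest spread, from -0.88 in pair 2 to 3.12 in pair 3, and Ciart lies below 0 in every pair.

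Among genes that modify clock proteins or are driven by the clock, Lpin1 was the one whose 3 ratios shared a sign and averaged at least 0.5. Of 13 tested genes for kinases, ubiquitin ligases and related regulators (14 listed; Fbxl21 was not above the filter), 0 were called, 1 was above 0 in all pairs and 0 were below; 3 had the signs of Per1 and 4 the opposite signs. Of 11 tested output genes (12 listed; Avp was not above the filter), 0 were called, 3 were above 0 in all pairs, 0 were below, 4 had the signs of Per1 and 0 the opposite signs. Of all genes, 9.95% were above 0 in all pairs, 9.65% below, 18.8% had the signs of Per1 and 17% the opposite ones. The largest of the 3 was Lpin1, a phosphatidate phosphatase of lipid synthesis, with 1.44, 0.14 and 1.03 (mean 0.87 ± 0.66, SD, n = 3). Its log2 signals of 10.36, 9.36 and 9.82 in the RNAs labelled RANK-/- lay above the 8.92, 9.22 and 8.79 of the RANK+/+ RNAs. Of all genes, 3.69% were higher for RANK-/- without overlap. With median centring alone Lpin1 fell to -0.07 in pair 2.

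Other gene lists moved with the same pairs. All 10 proliferation genes tested had the signs opposite to Per1, with list medians of -0.78, 0.76 and -1.08 in pairs 1, 2 and 3; Mki67, a marker of cycling cells, had -0.82, 0.75 and -0.97. Luminal epithelium markers had medians of 0.37, -0.53 and 0.50, with 5 of 8 genes in the signs of Per1 and none in the opposite ones. Beside these stand the medians of the 9 clock genes, 0.13, -0.27 and 0.25, of the 10 other core clock genes, 0.33, -0.22 and 0.86, and of all genes, 0.01, -0.01 and 0.00. Immediate early and glucocorticoid response genes answer signals that also induce Per1, and gave medians of 0.46, -0.21 and 0.10 for 10 immediate early genes and 0.21, -0.28 and 0.60 for 8 glucocorticoid response genes. Of the immediate early genes 4 had the signs of Per1, 0 the opposite signs and 1 was above 0 in all pairs. Of the glucocorticoid response genes 2 had the signs of Per1 (Zbtb16 with 1.51, -1.42 and 2.52, and Fkbp5 with 0.30, -0.24 and 0.32), 0 the opposite signs, and 1, Hsd11b1, which regenerates active glucocorticoid, was above 0 in all pairs with 1.01, 1.18 and 0.87. Beside these counts, 18.8% of all genes had the signs of Per1, 17% the opposite signs, and 9.95% were above 0 in all pairs.

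Markers of other cell types the sort could hold also differed between pairs. Fibroblast markers had medians of 0.13, 0.57 and 1.88 over 10 genes, and their summed log2 level was 17.17 to 17.88 in the RNAs labelled RANK-/- and 15.76 to 17.20 in the RANK+/+ RNAs. Leukocyte markers had a summed log2 level of 14.84 in the RANK+/+ RNA of pair 1 and of 13.03 to 13.52 in the other 5 RNAs, over 9 of 10 listed genes, with Cd79a not above background. That RNA is also the one lowest for Per1, Dbp, Tef, Clock and Nr1d2 and highest for Arntl and Nr1d1. Endothelium markers had medians of -0.01, -0.06 and 0.56 over 8 genes, and basal epithelium markers 0.14, 0.00 and 0.03 over 8. The summed log2 level of the basal markers, which weighs the brightest genes most, did not follow these medians. It was 14.77 to 14.96 in the RNAs labelled RANK-/- and 15.06 to 15.69 in the RANK+/+ RNAs. By sign, 1 of the 8 basal genes was above 0 in all pairs (9.95% of all genes) and 0 were below (9.65%). Of 5 adipocyte markers only 1 was measured. The part of proliferation, cell mixture, dye or hour of collection in the clock gene values was not tested.

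**Figure D4:**
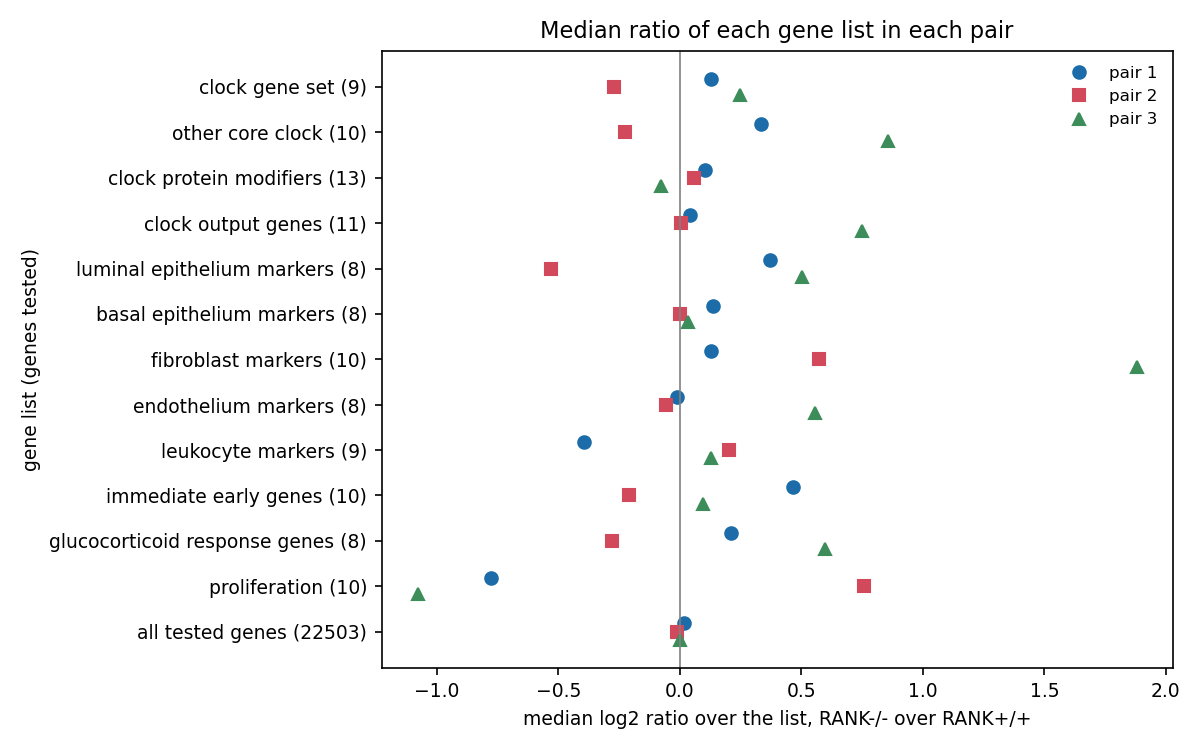
Median log2 ratio of RANK-/- over RANK+/+ (horizontal axis) of each gene list in pairs 1, 2 and 3, with the number of genes tested in brackets; each point is a median over genes of 1 pair. Proliferation genes lie at -0.78, 0.76 and -1.08, on the other side of 0 from the 9-gene clock set, the other core clock genes and the luminal markers in each pair.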

How the data were processed

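RNA of CD45- sorted tumor cells was hybridised by the authors to SurePrint G3 Mouse two-color arrays, scanned and extracted with Agilent Feature Extraction 10.7.3.1, per the labels. The deposited scanner tables hold raw median spot and background intensity, processed intensity and a log10 ratio; the deposited series table holds log2 ratios normalised by the authors, which ran as RANK-/- over RANK+/+ on all 6 arrays and served as an alternative (0 of its columns were unmatched). The log10 ratio was not used, and median signals replaced the mean signals first planned.

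With limma 3.58.1 (R 4.3.3), medians were corrected by normexp (offset 50) and normalised by intensity loess and Aquantile. Probes well above background in at least 2 pairs of 1 genotype were kept (30231 of 55681), the brightest probe standing for a gene. Arrays A and B were averaged, and the 3 pair ratios were tested against 0 by limma with Benjamini-Hochberg adjustment. Scripts were tested on simulated data. Promoters are from RefSeq. Clock genes, lists and the rule for named genes (the 10 genes, the other core clock genes, modifiers and outputs of 1 sign with a mean of at least 0.5, and the 5 genes most like Per1 and Per2) were chosen with earlier results of these data known. The text describes up to 3 genes of each other list. Values of 2 genes that the rule names are not reported here.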

Additional observations from a re-analysis of the deposited data

Results flagged for a closer look

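Arntl and Per3 had ratios of 1 sign in pair 1, with RANK-/- in Cy5, and of the other sign in both pairs with RANK-/- in Cy3. For Arntl pair 1 stood 0.95 below the mean of pairs 2 and 3 (a difference of -0.95), and for Per3 the difference was -0.35. The difference between dye arrangements was not tested for either gene, since 1 arrangement holds a single pair, and pair and dye cannot be told apart. Groups of 3 RNAs were too small for a check of single outlying samples.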

How the results depend on the processing

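No clock gene was called by limma under any alternative run. The F test between pairs called 9 clock genes under each of the alternatives it was run with. That was 9 of 9 tested, or 9 of 10 with no filter on dim probes, where Npas2 entered. Over all alternatives the mean ratio stayed between -0.66 and -0.18 for Nr1d1 (adjusted p 0.232 to 1) and between 0.24 and 0.87 for Per2 (adjusted p 0.36 to 1). The other 7 means turned sign somewhere. With median centring, which moved the median of all genes to -0.14, Clock was -0.0025, Dbp -0.14 and Tef -0.17, 2 clock genes (Nr1d1 and Arntl) were below 0 in all pairs, and 1 gene was above 0 in pairs 1 and 3 and below 0 in pair 2 (alternatives of these sign counts were chosen after seeing the data). Leaving out 1 pair in turn gave -0.40 to 0.081 for Arntl, 0.00 to 0.33 for Clock, -0.18 to 0.47 for Dbp, -0.65 to -0.18 for Nr1d1, -0.13 to 0.057 for Nr1d2, -0.0103 to 0.94 for Per1, -0.0097 to 0.19 for Per3 and -0.086 to 0.50 for Tef. The means of Arntl, Per1, Tef and Dbp turned sign without pair 1, that of Nr1d2 without pair 2, and those of Per3 and Dbp without pair 3. Over the 2 remaining pairs 1 to 5 clock genes were above 0 in all, the 5 of them without pair 2. These 5 are the genes already listed as above 0 in pairs 1 and 3 and below 0 in pair 2. Of all genes, 18.8% had those signs and 9.95% were above 0 in all 3 pairs. Shares of all genes over 2 pairs were not counted. The causes of these differences between runs were not tested.

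Over all genes, 0 were called in the design used. Counting 6 arrays as separate replicates called 298, which treats technical arrays as independent, the pair as a random block 13, and the rank product 18. Without the replicate block, that is without the pairing on the array, 0 genes were called and 827 had an unadjusted p under 0.05, beside 647 with it. Deviations of the 2 RNAs of a pair from their group means correlated at -0.03, -0.22 and -0.04. With 3 pairs, an exact sign-flip test of a single gene cannot go below a two-sided p of 0.25.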
